A study of Mus musculus with 6 samples.

Results

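Calcium ions that enter a neuron through channels are taken up by proteins that carry EF-hands, short loops that hold a calcium ion. Buffers such as calbindin and calretinin mainly limit how far and how long the calcium signal spreads, while calmodulin and the neuronal calcium sensors change shape on binding and pass the signal to enzymes, channels and membranes. Calbindin is a hallmark of mature dentate granule cells, the main excitatory neurons of the dentate gyrus, and calretinin of immature granule cells, some interneurons and, in the mouse, hilar mossy cells. The 9 genes considered were Calb1 and Calb2 (the buffers calbindin and calretinin), Calm2 and Calm3 (calmodulin), Nrgn (neurogranin, which has no EF-hand and binds calmodulin when calcium is low), and Hpca, Ncald, Hpcal4 and Vsnl1 (the sensors hippocalcin, neurocalcin delta, hippocalcin-like 4 and visinin-like 1). They were followed through all probe sets to which the platform annotation gives exactly 1 gene symbol, being the symbol of one of these genes. This gave 14 of 45037 probe sets, for 7 of the 9 genes: 4 for Calb1, 3 for Ncald, 2 each for Hpca and Vsnl1, and 1 each for Calb2, Hpcal4 and Nrgn. No probe set was assigned to Calm2 or Calm3 by this rule, so calmodulin was not analysed here.

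Total RNA of isolated hippocampal cells, named DGCs in the sample descriptions and taken from what is known of the study to be dentate granule cells, was measured on 6 Affymetrix mouse arrays. The series describes the transgenic mice as HuD overexpressors. HuD, encoded by Elavl4, is a neuronal RNA-binding protein that stabilises mRNAs. The descriptions give 2 control and 2 transgenic mice, with 1 array for mouse 1 and 2 arrays for mouse 2 of each group, although the 2 arrays described as control mouse 2 are numbered 1 and 2 in their titles. The labels give neither the promoter of the transgene nor strain, age or sex, and name preservation as the only treatment, for all 6 arrays alike. The tag re-LCM, of unstated meaning, appears in 3 titles, those of mouse 1 in each group and of array 1 of the second transgenic mouse. The last of these titles alone adds the word block, also unexplained.

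Values are probe set intensities on a linear scale as deposited. Differences are log2 of transgenic over control from limma, with the 2 arrays of a mouse averaged, so n = 2 mice per group. For the brightest probe set of a gene they come from the fit over 14678 genes, and for the other probe sets from the fit over all 45037. Each fit moderates the variance over its own rows, so SEs of the 2 fits cannot be compared. For Calb1 1417504_at the SE was 0.15 in the first and 0.05 in the second. The adjusted p is that of Benjamini and Hochberg with a threshold of 0.05. With limma the first fit called 0 of 14678 genes (0%), with 632 (4.31%) at an unadjusted p under 0.05, and the second called 0 of 45037 probe sets (0%), with 2923 (6.49%) at an unadjusted p under 0.05. Of all genes tested, 3.86% had the 3 transgenic arrays all above the 3 control arrays, and 4.22% had them all below. The granule cell markers, of which 8 of 8 were measured, were well above the floor intensity of 10.1 on all 6 arrays, among them Prox1 (497 to 651) and Dsp (6366 to 9391). The 3 Elavl4 probe sets differed by -0.73 to -0.15 with none called (limma, smallest adjusted p = 0.882), and whether they match the transgene transcript was not examined.

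Of the 7 measured genes, 5 had a higher and 2 a lower mean in the transgenic mice, and none passed the test (limma, adjusted p = 0.999 for each). Their median difference was 0.03, beside 0.0026 over all genes tested. For 5 of them (Calb1, Ncald, Hpcal4, Vsnl1 and Nrgn) the 95% interval of the difference stayed within 2-fold in either direction. Hpca and Calb2 had the widest ranges for their brightness: the log2 range over the 6 arrays was 0.82 for Hpca and 2.97 for Calb2, wider than in 96.1% and 96.9% of the 1468 genes in the same brightness class (10 classes of equal size by mean). Calb1, with a log2 range of 0.14, was at the other end, with 1.98% of its class narrower. For 1 of the 7 genes, Hpca, the group difference was larger than the difference between the 2 arrays of either mouse 2, as in 15.3% of all genes tested.

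**Figure D1:**
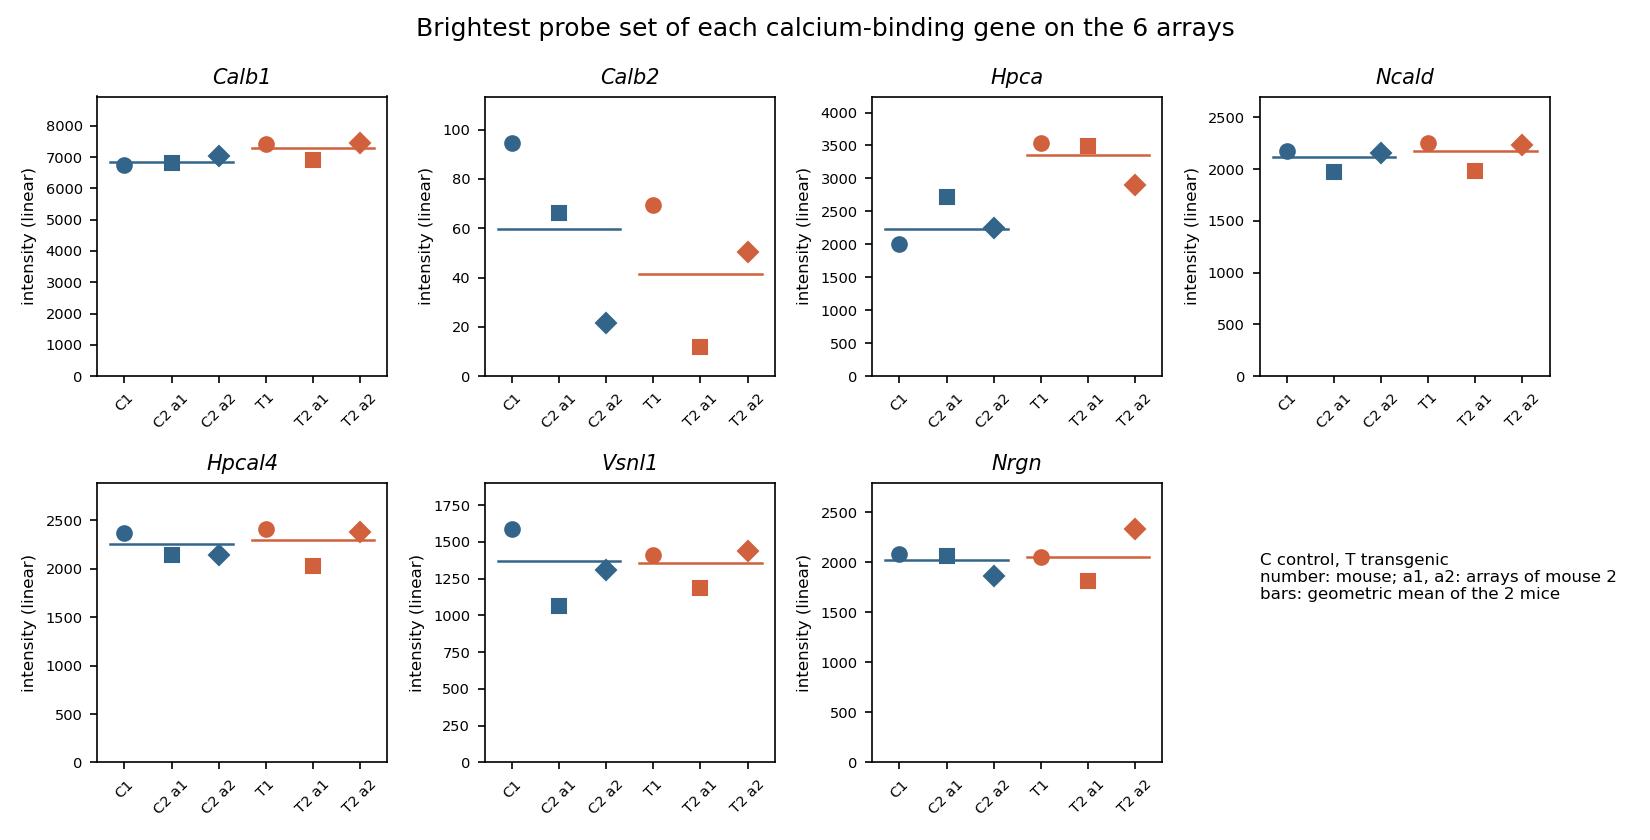
Intensity (linear, vertical axis from 0) of the brightest probe set of 7 calcium-binding genes on the 3 control (blue) and 3 transgenic (orange) arrays, with lines at the geometric mean of the 2 mice of a group. Hpca is the gene whose groups do not overlap (2007 to 2712 against 2903 to 3536), while Calb2 spans 12.04 to 94.5 with both groups mixed.

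Calb1 was bright and even on all arrays. Its brightest probe set, 1417504_at, read 6736 on control mouse 1 and 6811 and 7033 on the arrays of control mouse 2, against 7403 on transgenic mouse 1 and 6907 and 7444 on those of transgenic mouse 2. The highest of the 6 arrays was 1.11 times the lowest, and the groups overlapped, since the lowest transgenic array lay below the highest control array. On the log2 scale the control mice averaged 12.74 ± 0.03 and the transgenic mice 12.83 ± 0.03 (SD, n = 2), a difference of 0.09 (SE 0.15, 95% interval -0.30 to 0.49). This is a ratio of 1.07.

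The other Calb1 probe sets moved by similarly small amounts. Their SEs come from the fit over all probe sets, in which 1417504_at had an SE of 0.05. Probe set 1448738_at read 838, 755 and 852 in control and 825, 804 and 895 in transgenic arrays (mouse 1, then both arrays of mouse 2), a difference of 0.03 (SE 0.06). Probe set 1456934_at read 762, 669.8 and 736 against 695, 625 and 821, a difference of -0.05 (SE 0.07). In both, the lowest and the highest transgenic array came from the same mouse. The dimmest, 1458836_at, read 49.8, 76.3 and 38.8 against 59.7, 44.8 and 73.1. Its difference was 0.17 (SE 0.08), but array 2 differed from array 1 by -0.98 within control mouse 2 and by 0.71 within transgenic mouse 2, a spread that the mouse means do not show. The 4 probe sets therefore gave 3 higher and 1 lower mean, none called (limma, adjusted p = 0.882 to 0.965 for the 3 dimmer ones).

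Calb2 was dim and uneven, and its single probe set, 1451129_at, gave no ordered picture. It read 94.5 on control mouse 1, then 66.3 and 21.6 on control mouse 2, and 69.3 on transgenic mouse 1, then 12.04 and 50.5 on transgenic mouse 2. The lowest value is close to the floor of 10.1, and the groups overlapped almost completely. On the log2 scale the control mice averaged 5.90 ± 0.93 and the transgenic mice 5.37 ± 1.05 (SD, n = 2), a difference of -0.53 (SE 0.67, 95% interval -2.28 to 1.21, limma adjusted p = 0.999). Array 2 differed from array 1 by -1.62 within control mouse 2 and by 2.07 within transgenic mouse 2, each more than the group difference. Within the tagged arrays the difference was -1.71 and within the untagged arrays 0.42. Without control mouse 1 it was 0.13, and without transgenic mouse 2 it was 0.21, the reverse of the direction with all mice.

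Cells known to express calretinin were represented by 3 marker lists, measured beside Calb2. In bulk RNA, fewer cells of a type and less RNA per cell cannot be told apart. Of the interneuron markers 9 of 14 were measured, 2 higher and 7 lower (median -0.38), with a summed intensity of 2378 to 2887 in control and 2472 to 2652 in transgenic arrays. Leaving out control mouse 1 moved this median to -0.055, leaving out transgenic mouse 1 moved it to -0.057, and a random mouse block gave -0.035. That block gave mouse 2 of each group most of the weight, so it is not independent of leaving out mouse 1. Of the 13 with a probe set Dlx1 lay at or under the floor on every array. Gad1, at 1618 to 1912 the largest part of the interneuron sums, had all transgenic arrays above all control arrays (0.11, SE 0.15). Sst was separated downwards, at 56.0 to 62.0 in control and 7.33 to 28.1 in transgenic arrays (-1.47, SE 0.26, limma adjusted p = 0.999). Both were named after their values were seen. This is 1 of 9 in each direction, beside 3.86% of all genes tested upwards and 4.22% downwards. Of the mossy cell markers 2 of 5 were measured, Ajap1 and Nmb, both lower (-0.27 and -0.31), with sums of 248 to 306 and 208 to 241. All 10 immature neuron markers were measured, with 0 higher and 10 lower (median -0.31), with sums of 8123 to 8602 and 7235 to 8359.8. Their median was -0.17 without transgenic mouse 1. Sox11, named after its values were seen, was separated downwards, at 1195 to 1384 in control and 1037.5 to 1137 in transgenic arrays. It was 1 of 10, beside 4.22% of all genes tested. Of the last 2 lists no marker with a probe set was at or under the floor on every array.

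Array by array, the mean levels of these 3 lists were set beside Calb2. Transgenic mouse 1 had the second highest Calb2 intensity but the lowest mean level of the interneuron (-0.34) and immature neuron markers (-0.49), in log2 units from the mean of the 6 arrays. The mossy cell markers stood at -0.14 there. On transgenic mouse 2 array 1, where Calb2 was lowest, the interneuron and immature neuron markers stood at 0.06 and 0.01, and the mossy cell markers were at their lowest (-0.28). On control mouse 1, where Calb2 was highest, all 3 lists were at their highest (0.42, 0.29 and 0.20). Glial markers shared this, with oligodendrocyte (0.82), astrocyte (0.45) and microglia markers (0.30) also highest on that array. Lower means in transgenic mice were shared too. All 9 measured oligodendrocyte markers were lower (median -0.57, sums of 4876 to 12233 in control and 5656 to 8273 in transgenic arrays), as were all 7 measured microglia markers (median -0.33, sums of 3209 to 4564 and 3025 to 3752). Of the oligodendrocyte markers 1 of 9, Sox10, was separated downwards, beside 4.22% of all genes tested. Without control mouse 1 the oligodendrocyte median was -0.28, with 3 higher and 6 lower, and the microglia median -0.27, with 1 higher and 6 lower. The random mouse block, weighted towards mouse 2 of each group, gave -0.15 and -0.23. The part of any of these cells in the Calb2 values was not tested.

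Hpca was the 1 gene of the 7 whose groups did not overlap at the brightest probe set. Hippocalcin is a myristoylated sensor that moves to membranes when calcium rises and is abundant in hippocampal neurons, pyramidal cells above all. Its brightest probe set, 1450930_at, read 2007 on control mouse 1 and 2712 and 2252 on control mouse 2, against 3536 on transgenic mouse 1 and 3491 and 2903 on transgenic mouse 2. Every transgenic array was above every control array, by a margin of 191 intensity units between the nearest pair. On the log2 scale the control mice averaged 11.12 ± 0.21 and the transgenic mice 11.71 ± 0.11 (SD, n = 2), a difference of 0.59 (SE 0.19, 95% interval 0.10 to 1.08), or a ratio of 1.51. With limma the unadjusted p was 0.0268 and the adjusted p 0.999, so the gene did not pass the test. Of the 7 genes 1 was separated upwards in this way, beside 3.86% of all genes tested, and 1 had an unadjusted p under 0.05, beside 4.31% of all.

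The Hpca difference was above 0 in all 18 alternatives that were run. Since every transgenic array was above every control array, leaving out a mouse or an array, or splitting by tag, could not reverse it. In both mice with 2 arrays, array 2 was lower than array 1 by the same amount (-0.27 each). Within the tagged arrays the difference was 0.81 and within the untagged arrays 0.23, and with the tag as a term it was 0.52 (SE 0.20). Leaving out a mouse or an array gave 0.44 to 0.74, the lowest without control mouse 1. The second probe set, 1425833_a_at, was much dimmer and read 89.8, 163 and 83.4 in control and 206, 127 and 130.4 in transgenic arrays. Here the groups overlapped, because control mouse 2 array 1 stood above both arrays of transgenic mouse 2. Its difference of 0.67 (SE 0.34, 95% interval -0.48 to 1.81, limma adjusted p = 0.882) depended on the mice, with 0.33 without transgenic mouse 1 and 1.01 without transgenic mouse 2.

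Markers of pyramidal cells were measured beside Hpca. Of 8 listed, 6 were measured, 2 higher and 4 lower (median -0.32), with summed intensities of 459.6 to 566 in control and 464 to 520.4 in transgenic arrays. Without transgenic mouse 2 their median was 0.063, the opposite direction, and without control mouse 1 it was -0.074. None of the 7 with a probe set was at or under the floor on every array. Neurod6 read 42.7 to 49.8 in control and 17.7 to 43.8 in transgenic arrays (difference -0.85, SE 0.39), while Fibcd1 read 20.5 to 46.3 and 36.6 to 83.1 (1.02, SE 0.48), neither called by limma (adjusted p = 0.999). Of the other measured markers Wfs1 (-0.23, SE 0.34), Pou3f1 (-0.41, SE 0.33) and Iyd (-0.68, SE 0.37) were lower and Bok (0.18, SE 0.15) was higher. Bok read 130 to 151 in control and 152 to 155 in transgenic arrays, without overlap. It was 1 of 6 separated upwards, beside 3.86% of all genes tested, and 0 of 6 were separated downwards. Of the 8 granule cell markers 2 were higher and 6 lower (median -0.13), with summed intensities of 17181 to 20154 and 16775 to 17481. Their median was -0.021 without control mouse 2. The part of other cells in the Hpca values was not tested.

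**Figure D2:**
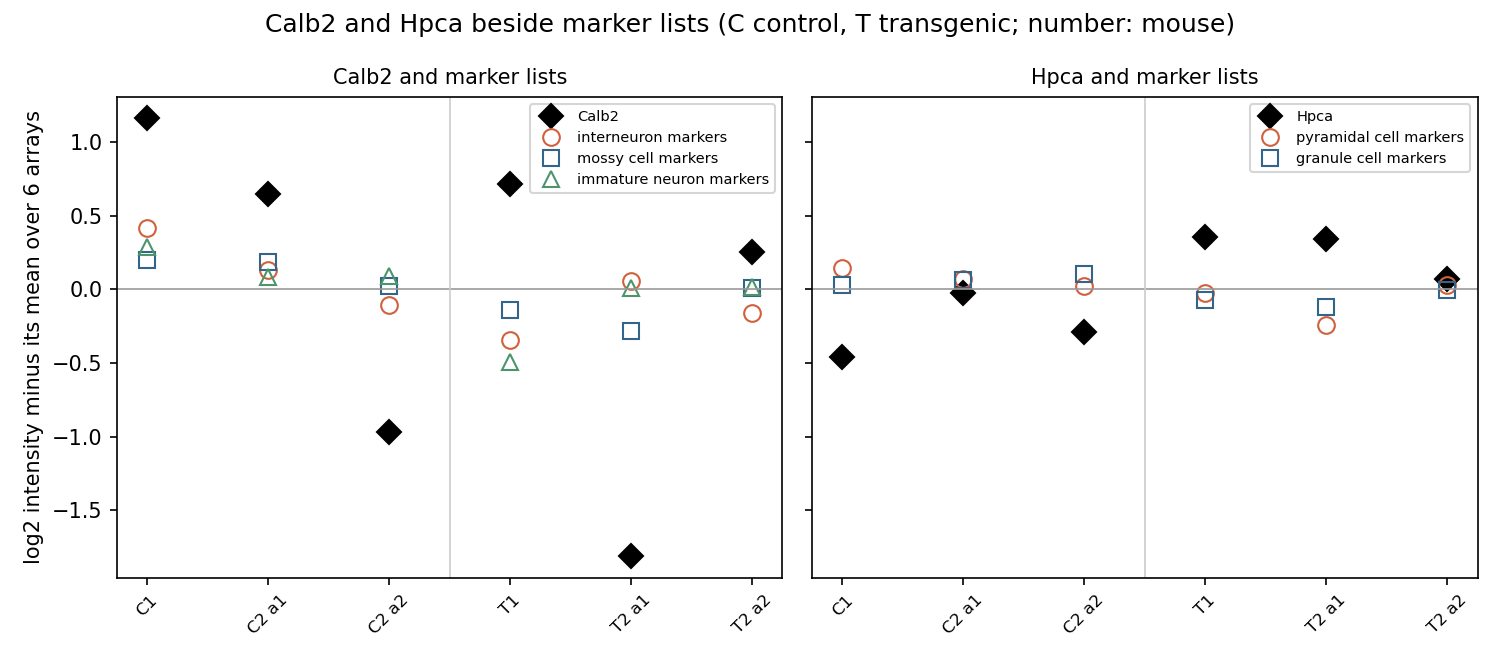
Log2 intensity relative to the mean of the 6 arrays (vertical axis) of Calb2 (left) and Hpca (right), with the mean of marker lists of cells that express them or are captured with them, for each array of control (C) and transgenic (T) mice. Calb2 varies over 2.97 log2 units and Hpca over 0.82, and whether either follows a marker list was not tested.

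At their brightest probe sets the other sensors overlapped between the groups. Ncald encodes neurocalcin delta, a close relative of hippocalcin. Its probe set 1417568_at read 2174, 1976 and 2157 in control and 2252, 1983 and 2233 in transgenic arrays, with both groups in nearly the same range. The difference was 0.04 (SE 0.16, 95% interval -0.37 to 0.45). Probe set 1417569_at read 664, 623 and 704 against 679, 583 and 625 (difference -0.05, SE 0.09). The dim 1444466_at read 79.4 to 138 and 98.3 to 121 (0.14, SE 0.15). In the fit that gave these last 2 SEs, that of 1417568_at was 0.07. In all 3 the groups overlapped, and the probe sets split into 2 higher and 1 lower.

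Hpcal4, hippocalcin-like 4, is represented by 1433987_at. It read 2372, 2139 and 2139 in control and 2405, 2027 and 2378 in transgenic arrays, so that the lowest and the second highest array were those of transgenic mouse 2. On the log2 scale the control mice averaged 11.14 ± 0.11 and the transgenic mice 11.17 ± 0.09 (SD, n = 2), a difference of 0.03 (SE 0.16, 95% interval -0.40 to 0.46). A difference between the changes of Hpca and its relatives was not tested.

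For Vsnl1, which encodes a sensor that binds membranes in the presence of calcium, the 2 probe sets disagreed. The bright one, 1420955_at, read 1585, 1066 and 1308 in control and 1411, 1185 and 1436 in transgenic arrays. Both ends of this range were control arrays, and the difference was -0.01 (SE 0.21, 95% interval -0.56 to 0.53). The dim one, 1450055_at, read 31.5, 29.0 and 34.5 against 59.9, 49.2 and 40.7, so every transgenic array was above every control array. Over all probe sets 3.01% were separated in this way. Its difference was 0.71 (SE 0.19, 95% interval 0.08 to 1.35), with an unadjusted p of 0.0375 and an adjusted p of 0.732 (limma). Its mean of log2 4.98 in control mice lies close to the filter on dim probe sets at log2 4.92. Averaging both probe sets gave a difference of 0.35 for the gene, against -0.01 from the bright one alone.

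Nrgn, the calmodulin store of dendritic spines and a substrate of protein kinase C, had the smallest difference of the 5 genes with a higher mean. Its probe set 1423231_at read 2081, 2066 and 1864 in control and 2047, 1817 and 2328 in transgenic arrays, and the lowest and the highest value both came from transgenic mouse 2. On the log2 scale the control mice averaged 10.98 ± 0.06 and the transgenic mice 11.003 ± 0.0047 (SD, n = 2). The small SD of the transgenic mice rests on averaging 2 arrays that differ by 0.36. The difference was 0.02 (SE 0.15, 95% interval -0.38 to 0.42).

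**Figure D3:**
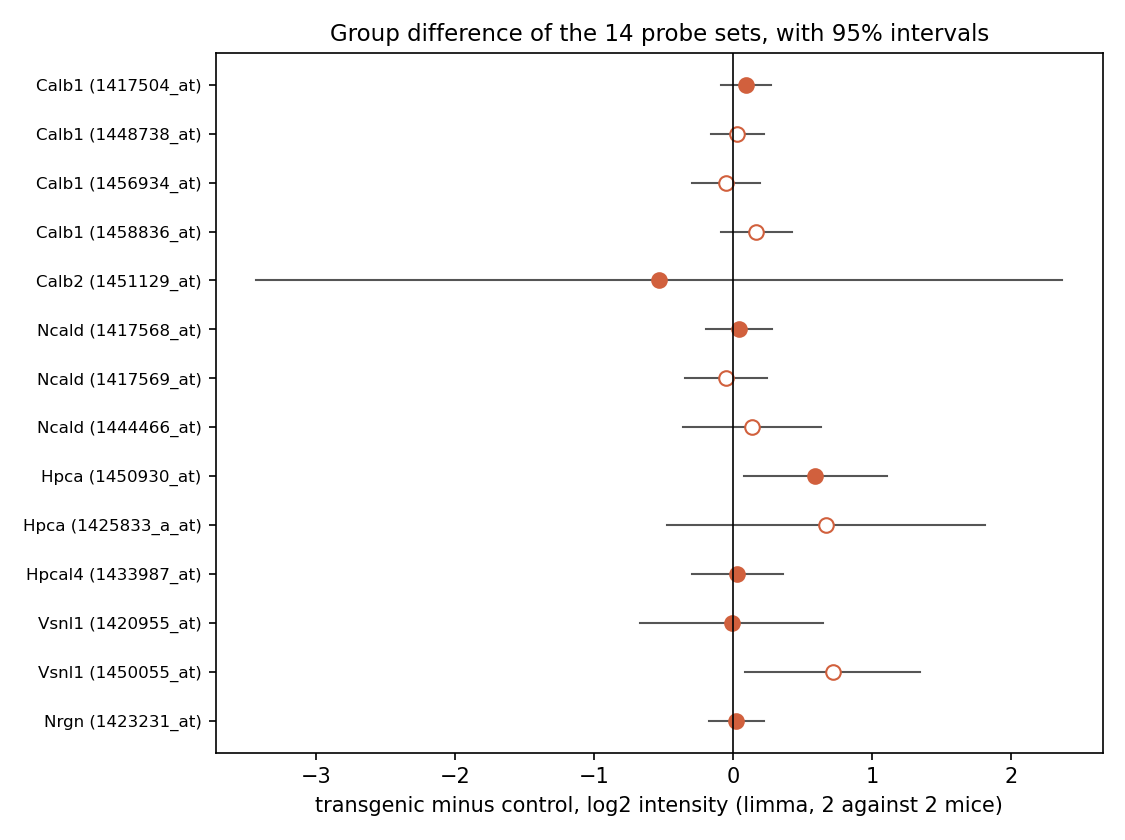
Difference of transgenic minus control (log2, horizontal axis) for each of the 14 probe sets, with 95% intervals from the limma fit over all 45037 probe sets. Filled points are the brightest probe set of a gene and open points the others. Of the 14 intervals, those of 1450930_at (Hpca) and 1450055_at (Vsnl1) do not include 0 before adjustment.

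The tag in the array titles moved none of the 7 genes past the threshold. Fitted beside the group over 6 arrays, tagged minus untagged arrays differed by -0.09 (Nrgn) to 0.26 (Calb2), and limma called 0 of 14678 genes for the tag (0%), with 754 (5.14%) at an unadjusted p under 0.05. The group difference within tagged and within untagged arrays had opposite signs for 5 of the 7 genes, and the same was true of 52.5% of all genes tested. Calb1 (0.09 and 0.10) and Hpca (0.81 and 0.23) were the genes with the same sign in both, which for Hpca follows from groups that do not overlap. Each of these values rests on 1 array on one side of the comparison.

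The wider set of calcium genes gave no called member either. Of 35 other EF-hand genes 24 were measured, 13 higher and 11 lower (median 0.06), with 0 past the threshold (limma). By unadjusted p the first were S100a13 (-0.47, SE 0.17), which read 38.2 to 97.3 in control and 38.7 to 49.3 in transgenic arrays, and S100b, a gene of astrocytes (-0.87, SE 0.35). Both ends of the S100a13 control range came from control mouse 2. Array 2 of that mouse differed from array 1 by -1.35 for S100a13 and by -1.14 for S100b, a spread that the mouse means do not show. S100b is also one of the astrocyte markers, of which 9 of 10 were measured, 1 higher and 8 lower, with summed intensities of 4496 to 6847 in control and 4183 to 5051 in transgenic arrays. Their median was -0.21, and without control mouse 1 it was -0.0049, with 4 higher and 5 lower. None of the 10 was at or under the floor on every array, and the part of astrocytes in the S100b values was not tested. Pvalb, parvalbumin, is counted among both the EF-hand genes and the interneuron markers. Kcnip4, a sensor that regulates potassium channels, and Efhd2 were the 2 genes with all transgenic arrays above all control arrays (0.36, SE 0.15, and 0.30, SE 0.17), beside 3.86% of all genes tested, and both were picked out after their values were seen. The Kcnip4 intensities were 487, 509.9 and 522 in control and 656, 618 and 642 in transgenic arrays.

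Among calmodulin-binding and calcineurin genes, 9 of 10 were measured, 3 higher and 6 lower (median -0.01). Pcp4, a small calmodulin-binding protein, gave 0.0076 (SE 0.15), and the catalytic and regulatory calcineurin genes Ppp3ca and Ppp3r1 gave -0.01 (SE 0.15) and -0.0016 (SE 0.20). The first by unadjusted p were Gap43 (-0.85, SE 0.58), a growth cone protein that binds calmodulin as neurogranin does, and Ppp3cc (-0.29, SE 0.20). Pcp4, Ppp3ca and Ppp3r1 were named after their values were seen. None of the 9 was without overlap between the groups.

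All 7 calcium-binding genes of the endoplasmic reticulum and secretory pathway were measured, 3 higher and 4 lower (median -0.03). Calu, calumenin, read 207, 203 and 219 in control and 154, 109.8 and 136 in transgenic arrays, with every transgenic array below every control array (-0.61, SE 0.19, limma adjusted p = 0.999). Sdf4 was separated the other way, at 1633 to 1795 in control and 1851 to 2047 in transgenic arrays (0.18, SE 0.16), and was named after its values were seen. Of the 7 genes 1 was thus separated in each direction, beside 3.86% of all genes tested upwards and 4.22% downwards. Nucb1, nucleobindin, followed by unadjusted p at 0.82 (SE 0.66).

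Of 23 pump, exchanger and store genes 19 were measured, 9 higher and 10 lower (median -0.0066), with 0 past the threshold (limma) and 1 at an unadjusted p under 0.05. The sodium-calcium exchanger Slc8a2 read 64.1, 54.3 and 57.5 in control and 29.2, 26.8 and 49.9 in transgenic arrays, again without overlap (-0.87, SE 0.19, unadjusted p = 0.00753, adjusted p = 0.999). Orai1, a store-operated calcium channel named after its values were seen, was the other separated gene, at 60.9 to 71.6 in control and 17.1 to 59.8 in transgenic arrays (-0.82, SE 0.46). These 2 of 19 genes stand beside 4.22% of all genes tested. Slc8a3, a relative of Slc8a2, gave 0.44 (SE 0.18), with overlap between the groups. The median over each of these lists was within 0.06 of 0, beside 0.0026 over all genes tested.

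**Figure D4:**
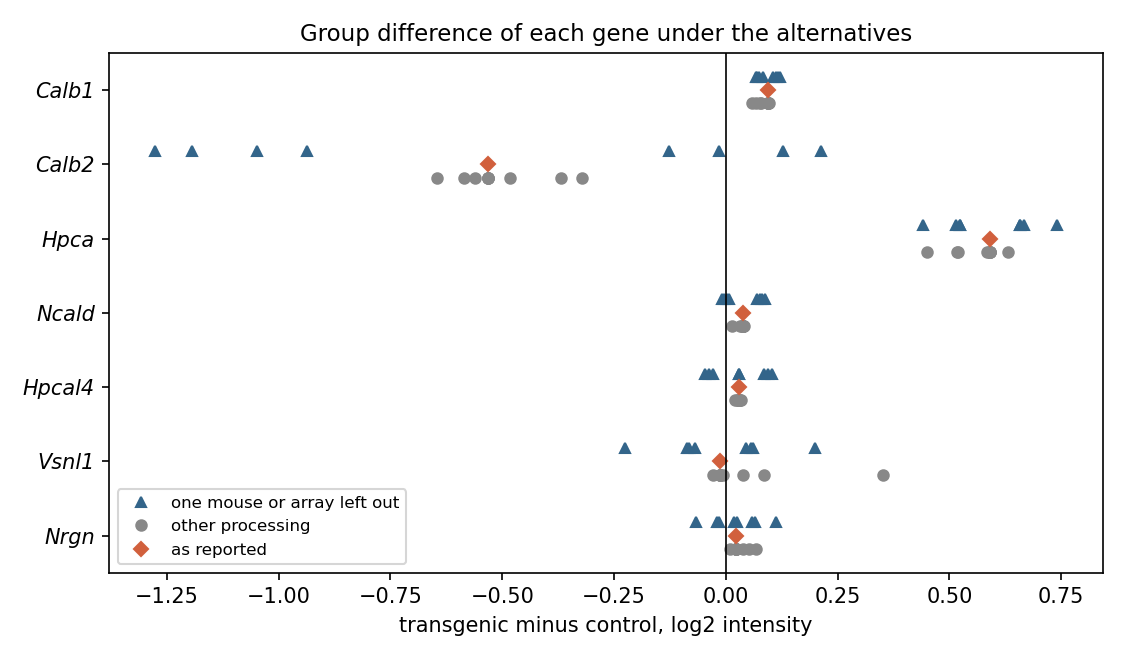
Difference of transgenic minus control (log2, horizontal axis) for each of the 7 genes as reported (diamonds), under other processing (circles) and with a mouse or an array left out (triangles). Hpca stays between 0.44 and 0.74 and Calb1 between 0.06 and 0.12, while Calb2 runs from -1.28 to 0.21.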

How the data were processed

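Intensities per probe set were deposited on a linear scale. They were scaled by the authors, as the values themselves show, so that the 2% trimmed mean is 150.001 on each array. Which program summarised and background-corrected the probes is not given in the sources used here. Scanner files were not used. After 64 control probe sets were left out, values under the pooled 25th percentile (10.1) were set to it and log2 was taken. Probe sets with a mean over 6 arrays above the median (log2 4.92) were tested, the brightest per gene, which gave 14678 items, 11138 with a symbol. All 14 member probe sets passed. A second fit took every probe set without this filter. Arrays of a mouse were averaged and compared in limma 3.58.1 (lmFit, eBayes; R 4.3.3; 2 residual and 2.70 prior degrees of freedom). The median intensity per array was 32.3 to 36.8, and precision is limited by the small number of mice. On simulated arrays of the 14678 genes, 0 of 200 simulated 2-fold changes were recovered, and 109 of 200 at 4-fold, with at most 6 false calls at any fold tested. The noise was drawn for each array separately, from the spread of arrays within groups, with no part shared by arrays of a mouse. Recovery with differences between mice was not simulated.

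Named were all members, the 2 genes of smallest p per calcium gene list, and markers needed for a cell type. Entrez identifiers matched 34741 of 34945 single symbols to RefSeq and changed 0. The members and lists were chosen with earlier results of these data known. Alternatives changed the normalization, floor, filter, probe sets per gene, unit of replication, tag, variance model, and left out each mouse and each array of mouse 2 in turn.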

Additional observations from a re-analysis of the deposited data

How the results depend on the processing

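No alternative put any of the 7 genes past the threshold (limma, smallest adjusted p = 0.280, for Hpca with the mouse as a random block). The count of genes called was 0 except with a variance trend and robust variance, where it was 1. Over all probe sets it was 6 with the floor at the median, 18 with 6 arrays as separate samples, and 83 under the random block, none of them a member. Under that block the estimated correlation between arrays of a mouse was -0.54, so arrays of a mouse were no more alike than those of different mice. The block gave 1770 genes at an unadjusted p under 0.05 (limma), against 632 in the main fit. Calb1 and Hpca kept their direction in all 18 alternatives, which for Hpca was fixed in the leave-outs by the separation of its groups. Vsnl1 turned to 0.35 with the mean of its probe sets, 0.039 with 6 arrays as separate samples and 0.085 under the random block. With the floor at the median, Calb2 was -0.32. Leaving out a mouse or an array gave -1.28 to 0.21 for Calb2, -0.046 to 0.10 for Hpcal4, -0.0097 to 0.088 for Ncald, -0.067 to 0.11 for Nrgn and -0.22 to 0.20 for Vsnl1. The median of the 7 genes ran from -0.03 to 0.10 over these leave-outs.

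The median of the other EF-hand genes was -0.043 with the floor at the median and without a filter, -0.016 with the tag as a term, and -0.065 to 0.065 over leave-outs. That of the calmodulin-binding and calcineurin genes was -0.074 with the mean of probe sets, -0.061 with the random block, -0.071 with the tag as a term, and -0.12 to 0.029 over leave-outs. Leave-outs gave -0.38 to 0.10 for the endoplasmic reticulum list and -0.061 to 0.097 for the pump, exchanger and store list. The causes were not tested. With the mouse number as a replicate block, the count of genes called was 0 and Hpca was at 0.59 (limma, unadjusted p = 0.0465, adjusted p = 0.959, with 0.280 to 1.00 over its alternatives). The labels do not say that a number is shared between groups, and the deviations of mouse 1 from mouse 2 correlated across genes at r = 0.03 between the groups. The probe set of Calb2 was dim, and its log2 range of 2.97 was wide even beside the median of 1.17 in its brightness class. The cause of this spread was not tested.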
